A study of Rattus norvegicus with 9 samples.

Results

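The genes described here are 9 genes of MHC class II antigen presentation in the rat, taken from the 17109 genes measured: the chain genes RT1-Da, RT1-Db1, RT1-Ba, RT1-Bb, RT1-DOa, RT1-DOb and RT1-DMa, the invariant chain gene Cd74, and Ciita, which encodes the transactivator of the family. They were chosen by name, from the transcript rows that RefSeq assigns to these symbols, and rows of the same gene were added up. RNA sequencing was done on alveolar macrophages, which clear inhaled particles, from male Wistar rats of 225 to 250.0 g. Rats received nitrogen mustard (NM, mechlorethamine hydrochloride, an alkylating agent that injures the lung) at 0.125 mg/kg into the trachea and were studied on day 1 or day 28, or received phosphate-buffered saline (PBS) by the same route. Each of the 3 groups had 3 biological replicates, numbered 0, 1 and 2. The PBS rats are labelled day 0, and the time at which their cells were collected is not given in the sources used here. All rats were anaesthetised with isoflurane for the instillation.

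MHC class II molecules are pairs of an alpha and a beta chain that show peptides from engulfed material to helper T cells. In the rat, RT1-D (RT1-Da and RT1-Db1) is the counterpart of human HLA-DR and RT1-B (RT1-Ba and RT1-Bb) that of human HLA-DQ. The product of Cd74, the invariant chain, fills the groove of a new class II molecule and guides it to the endosome, where DM (RT1-DMa with RT1-DMb) exchanges the leftover fragment for a peptide and DO (RT1-DOa with RT1-DOb) restrains DM. In humans and mice CIITA binds no DNA itself. It is recruited by a complex of RFX, CREB and NF-Y that sits on the X, X2 and Y boxes of class II promoters, and interferon gamma is its best known inducer.

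Promoter stretches are shown because X and Y boxes are the known form of control of the class II genes and Cd74. RefSeq promoters of the assembly GRCr8, from 250 bases before to 50 bases after each gene's start, were matched for 8 of the 9 genes. Ciita had no entry among them, so the motif counts below, that of the gamma-activated site included, do not cover it. The 70 bases around the Y box of each are printed 5′ to 3′ on the gene's own strand, where capitals mark matches to the X box letters CCTNGNNAC, to a looser X box (GNNAC followed directly by NNATG), to the X2 box core TGACG and to the Y box ATTGG, each searched on both strands.
RT1-Da (chr20:4515309-4515378, + strand): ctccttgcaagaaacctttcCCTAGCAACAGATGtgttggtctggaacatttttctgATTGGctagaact
RT1-Db1 (chr20:4560230-4560299, - strand): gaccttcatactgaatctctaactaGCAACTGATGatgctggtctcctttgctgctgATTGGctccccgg
RT1-Ba (chr20:4576957-4577026, + strand): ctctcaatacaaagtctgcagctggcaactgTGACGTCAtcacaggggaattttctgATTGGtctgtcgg
RT1-Bb (chr20:4604167-4604236, - strand): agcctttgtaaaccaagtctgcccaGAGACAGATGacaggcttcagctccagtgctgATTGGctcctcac
RT1-DOa (chr20:4758518-4758587, - strand): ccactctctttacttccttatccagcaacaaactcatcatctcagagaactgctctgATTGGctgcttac
RT1-DOb (chr20:4627594-4627663, - strand): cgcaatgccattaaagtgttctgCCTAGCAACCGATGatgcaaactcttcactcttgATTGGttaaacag
RT1-DMa (chr20:4712387-4712456, - strand): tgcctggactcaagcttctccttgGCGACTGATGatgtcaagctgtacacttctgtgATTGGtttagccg
Cd74 (chr18:56526960-56527029, + strand): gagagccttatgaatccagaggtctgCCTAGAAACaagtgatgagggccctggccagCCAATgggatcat

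A Y box match lay in 8 of 8 promoters, against 37.7% of 27457 rat promoters. The Y box shown in each stretch had its first base between -43 and -107 from the annotated start in the RT1 genes, on the gene's strand, and at -189 in Cd74, on the other strand. RT1-Db1, RT1-Bb and RT1-DOb had another Y box match each on the other strand (at -55, -172 and -57), and RT1-DMa had another on its own strand (at -34). An X box match 15 to 35 bases from a Y box was found in 3 of the 8 (RT1-Da, RT1-DOb and Cd74), against 0.605% of all promoters. The alternative form, chosen after the promoters had been seen, gave such a pair in 5 of 8 (RT1-Da, RT1-Db1, RT1-Bb, RT1-DOb and RT1-DMa), against 0.463% of all promoters. It is not looser in what it matches, as it was found in 9.31% of all promoters, against 16.25% for the X box letters. It gave no such pair in Cd74. Between them the 2 forms cover each gene but RT1-Ba and RT1-DOa. The X2 core was matched in RT1-Ba alone of the 8 (22.0% of all promoters), and the letters TTCNNNGAA of a gamma-activated site, searched on both strands, in 0 of 8 (8.68% of all promoters). The capitals in RT1-Da and RT1-DOb run over both X box forms, which overlap there, and those of RT1-Ba over the X2 core matched on both strands. RT1-DMa has the pair of the alternative form in common with RT1-Da and RT1-Db1, and its RNA level differed by under 1 log2 unit between any of the groups. Anywhere in the promoter, the X box letters were found in 4 of 8, against 16.25% of all promoters; the match in RT1-Bb lay after the start, outside the stretch shown.

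**Figure D1:**
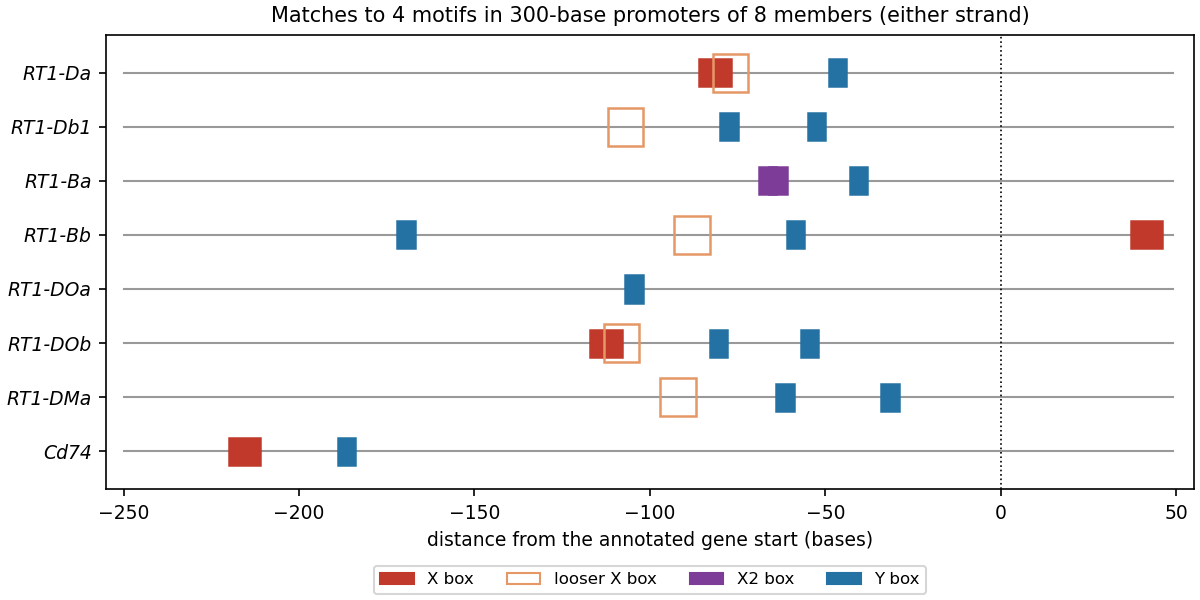
Positions of motif matches in the promoters of 8 genes, in bases from the annotated gene start. Coloured boxes are matches on either strand to the X box, X2 box, Y box and alternative X box form (labelled looser X box). Each of the 8 rows has at least 1 Y box, from -172 to -34 in the RT1 genes and at -189 in Cd74.

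The authors' unit is FPKM, fragments scaled by transcript length and by library size, so levels of different genes can be set side by side. The sequencing depth, which can be read from low FPKM values only as a multiple of that of NM day 1 replicate 0, was 1.42 to 2.58 times that library in PBS, 1 to 1.47 times at day 1 and 1.04 to 1.12 times at day 28. An FPKM of 0 may be a failed estimate, as 73 transcript rows were at 0 in one library and above 20 FPKM in another. Macrophage genes were abundant in each group, with Cd68 at 724 to 1355 FPKM, the mannose receptor gene Mrc1 at 201 to 419 and Pparg, a regulator of alveolar macrophage identity, at 105 to 193, while Marco, a scavenger receptor of these cells, was listed at 0 in every library. Mrc1 and Pparg also differed between groups, as given with the marker lists below. These are bulk samples, in which fewer cells of a type and less RNA per cell cannot be told apart. Reads of near-identical RT1 loci may be shared between rows. RT1-Db2, a second beta chain locus of RT1-D, was listed at 0 in 8 libraries and at 0.291 FPKM in NM day 28 replicate 2, and RT1-Ha reached at most 2.77 FPKM. Whether the values of RT1-Db1 include reads of RT1-Db2 was not tested.

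Ciita was close to undetected without NM and after 28 days, and clearly present on day 1. Its FPKM was 0.179, 0.631 and 1.07 in PBS replicates 0, 1 and 2, then 10.7, 18.3 and 13.5 at NM day 1, and 0, 0.190 and 0.174 at NM day 28. The 3 day 1 libraries stood above each of the other 6, while PBS and day 28 overlapped. Day 1 was higher than PBS by 3.23 ± 0.29 on the log2(FPKM + 1) scale (SE, n = 3 per group; adjusted p = 2.93e-05, limma with Benjamini-Hochberg adjustment over all 9885 genes tested). Day 28 was lower than day 1 by 3.73 on that scale (adjusted p = 1.61e-05), and against PBS the difference of -0.50 did not pass (adjusted p = 0.317, 95% confidence interval -1.13 to 0.12). Ciita is the sum of 3 transcript rows. One of them was at 4.38, 10.3 and 6.86 FPKM in the day 1 libraries and at 0 in the other 6. The remaining 2 rows changed places between libraries of one group, so that the share of each transcript is uncertain.

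The classical chains of RT1-D rose together on day 1. RT1-Da, the RT1-D alpha chain gene, was at 10.8, 14.6 and 12.8 FPKM in PBS, at 241, 290.5 and 347 at day 1 and at 22.5, 7.44 and 11.3 at day 28. RT1-Db1, the beta chain gene, was at 10.4, 23.1 and 17.0 FPKM in PBS, at 260.4, 309 and 311 at day 1 and at 25.4, 4.15 and 14.3 at day 28. In both genes the day 1 libraries did not overlap with the others, and PBS and day 28 did. The day 1 difference from PBS was 4.41 ± 0.30 log2 units for RT1-Da (adjusted p = 4.16e-06 by limma) and 4.11 ± 0.46 for RT1-Db1 (adjusted p = 0.000191), or 22.9 and 17.4 times as a ratio of mean FPKM.

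The RT1-B chains rose unevenly. RT1-Ba, the alpha chain gene, was at 6.71, 9.83 and 9.59 FPKM in PBS, at 193, 196 and 214 at day 1 and at 12.4, 2.56 and 5.91 at day 28. RT1-Bb, the beta chain gene, was at 10.8, 8.46 and 5.94 FPKM in PBS, at 39.5, 56.9 and 45.5 at day 1 and at 9.69, 2.17 and 6.39 at day 28. The day 1 libraries again stood above all others in both genes. The difference from PBS was 4.39 ± 0.36 log2 units for RT1-Ba (adjusted p = 1.68e-05 by limma) and 2.38 ± 0.37 for RT1-Bb (adjusted p = 0.00228). As a ratio of mean FPKM these were 23.1 and 5.62 times.

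The chain ratios within a library are computed from the same FPKM and so restate this unevenness. The ratio of RT1-Ba to RT1-Bb FPKM was 0.619, 1.16 and 1.61 in PBS, 4.88, 3.44 and 4.71 at day 1 and 1.28, 1.18 and 0.926 at day 28. The day 1 ratios lay above the others in each library. The log2 ratio was higher at day 1 than in PBS by 2.03 ± 0.44 (two-sided exact permutation test, p = 0.1, which is the smallest p that 3 against 3 allows, and 0.2 adjusted over the 12 comparisons of 4 ratios, a choice made with the values in view). The ratio of RT1-Da to RT1-Db1 ran from 0.632 to 1.04 in PBS and from 0.925 to 1.12 at day 1, with overlap (exact permutation p = 0.3). The part of reads shared with other RT1 loci in these ratios was not tested.

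Cd74 was the most abundant of the 9 genes on day 1. Its FPKM was 37.6, 66.6 and 64.3 in PBS, 793, 978 and 987 at day 1 and 86.2, 25.4 and 69.8 at day 28. Each day 1 library was above the other 6, and PBS and day 28 overlapped. The day 1 difference from PBS was 4.05 ± 0.37 log2 units (adjusted p = 3.37e-05 by limma; 16.4 times as a ratio of mean FPKM). The ratio of Cd74 to RT1-Da was 3.48, 4.55 and 5.01 in PBS, 3.29, 3.37 and 2.85 at day 1, and 3.84, 3.41 and 6.19 at day 28. It was lower in each day 1 library than in the others, by 0.44 log2 units against PBS (exact permutation p = 0.1, 0.2 adjusted).

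The DO chains stayed low in all groups and were highest on day 1. RT1-DOa was at 0.414, 1.14 and 1.496 FPKM in PBS and at 4.29, 3.15 and 3.62 at day 1, and was listed at 0 in each day 28 library. RT1-DOb was at 1.31, 2.07 and 2.71 FPKM in PBS, at 8.74, 14.6 and 9.51 at day 1 and at 0.894, 0 and 2.14 at day 28. The day 1 libraries did not overlap with the others in either gene. The day 1 difference from PBS was 1.25 ± 0.28 log2 units for RT1-DOa (adjusted p = 0.0181 by limma) and 1.97 ± 0.38 for RT1-DOb (adjusted p = 0.00804). With a pseudocount of 0.1 neither passed (adjusted p = 0.0892 and 0.112). The RT1-DOa call was also lost without NM day 1 replicate 0, 1 or 2 (adjusted p = 0.116, 0.0574 and 0.0591) and without PBS replicate 0 or 1 (adjusted p = 0.0706 and 0.0569). For the fall of RT1-DOa from PBS to day 28 no fold is given, since day 28 is listed at 0; the 2 groups did not overlap, and the test missed the threshold (adjusted p = 0.0595). It passed with a pseudocount of 0.1, with no filter and without PBS replicate 0 (adjusted p = 0.0110, 0.0398 and 0.0430).

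RT1-DMa, the alpha chain gene of the peptide editor DM, was already high in PBS and was the 1 gene of the 9 not called on day 1. Its FPKM was 200.2, 208 and 176 in PBS, 171, 209 and 239 at day 1 and 115, 105 and 111 at day 28. PBS and day 1 overlapped, and the day 28 libraries lay below both. The day 1 difference from PBS was 0.07 ± 0.16 log2 units (adjusted p = 0.819 by limma, 95% confidence interval -0.27 to 0.42). Day 28 was lower than PBS by 0.81 ± 0.16 (mean FPKM 110.4 against 195, adjusted p = 0.0102) and lower than day 1 by 0.88 ± 0.16 (adjusted p = 0.00419). Without PBS replicate 1, the difference of day 28 from PBS missed the threshold (adjusted p = 0.0595). RT1-DMb, which encodes the partner chain, was at 207, 209 and 160 FPKM in PBS, at 169, 193 and 217 at day 1 and at 143, 132 and 115 at day 28. Its day 1 difference was 0.01 (adjusted p = 0.976 by limma), and day 28 was lower than day 1 by 0.56 (adjusted p = 0.0479) and differed from PBS by -0.55 without passing (adjusted p = 0.0686). Its fall from day 1 to day 28 passed in 5 of 18 alternative fits.

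The RNA ratio of the DM alpha chain gene to the RT1-D alpha chain gene was lowest on day 1. The ratio of RT1-DMa to RT1-Da FPKM was 18.5, 14.2 and 13.7 in PBS, 0.711, 0.721 and 0.688 at day 1 and 5.12, 14.2 and 9.81 at day 28. All 3 day 1 ratios were below 1 and all 6 others above 5. The log2 ratio fell by 4.44 ± 0.14 from PBS to day 1 (exact permutation p = 0.1, 0.2 adjusted).

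**Figure D2:**
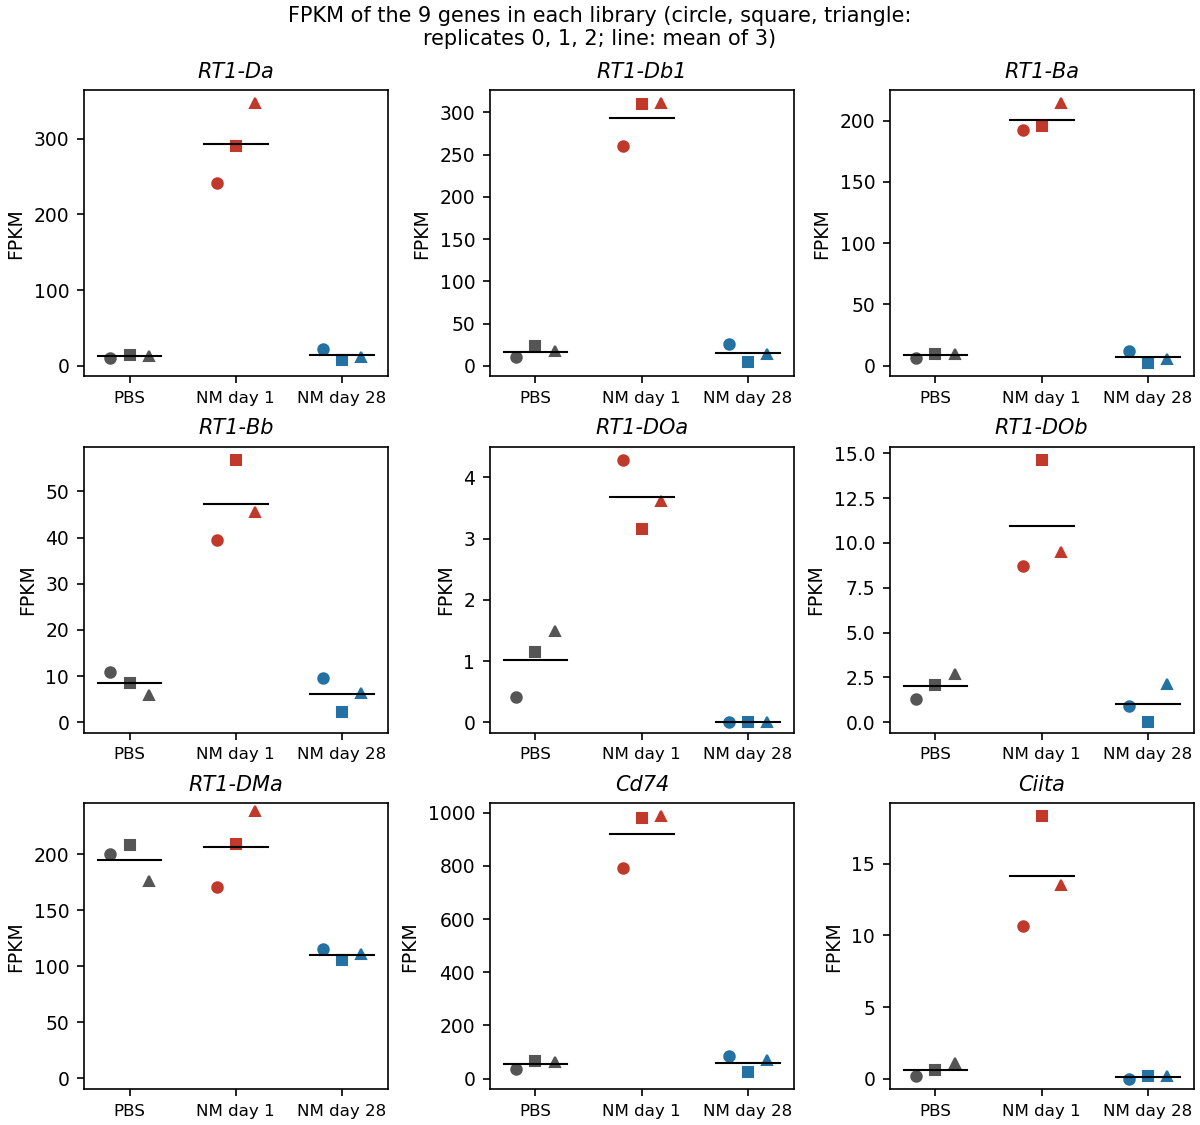
FPKM (linear vertical axes) of each of the 9 genes in the 3 groups; circle, square and triangle are replicates 0, 1 and 2 and the line is the mean of 3. In 8 panels the day 1 libraries stand above the other 6, as for Cd74 (793 to 987 against 25.4 to 86.2 FPKM), and in the RT1-DMa panel the day 28 libraries (105 to 115 FPKM) stand below the rest.

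**Figure D3:**
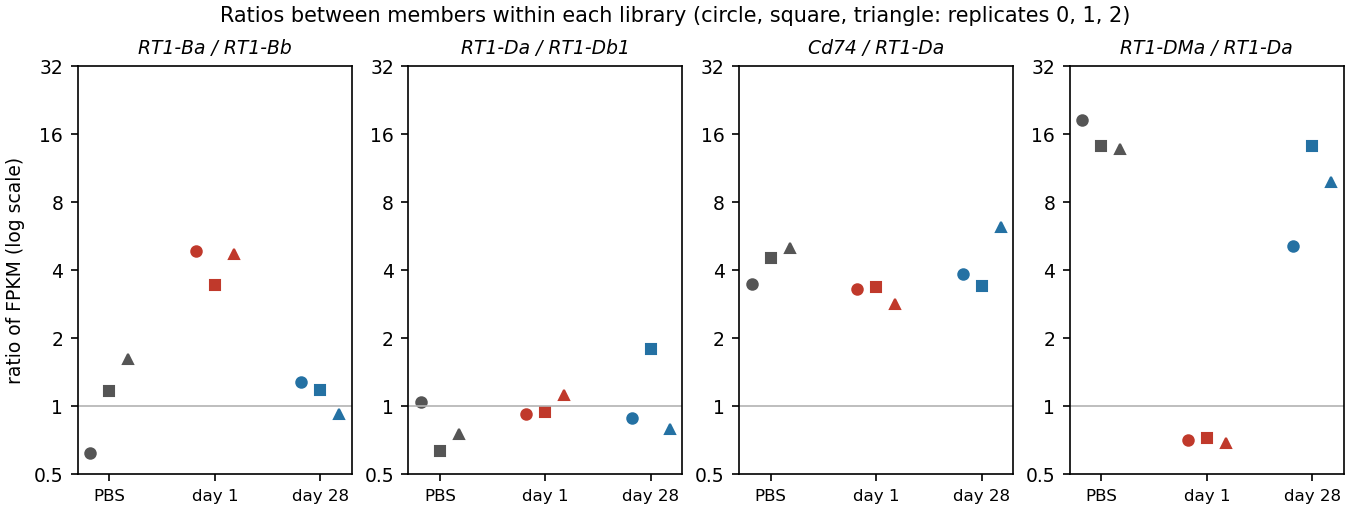
Ratios of FPKM between 2 genes of the same library, on a log scale, for RT1-Ba to RT1-Bb, RT1-Da to RT1-Db1, Cd74 to RT1-Da and RT1-DMa to RT1-Da; circle, square and triangle are replicates 0, 1 and 2. The RT1-Ba to RT1-Bb ratio is 3.44 to 4.88 at day 1 and at most 1.61 elsewhere, and the RT1-DMa to RT1-Da ratio is 0.688 to 0.721 at day 1 and at least 5.12 elsewhere.

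Against the whole table, 8 of the 9 genes were higher and 0 were lower at NM day 1 than in PBS, where 5.28% of the 9885 genes tested were called higher and 4.58% lower (9.86% in either direction). The 8 genes that were called did not overlap between the groups, as did 15.2% of all genes in that direction. Their median difference, RT1-DMa included, was 3.23 log2 units (3.64 without RT1-DOa), against -0.04 for all genes tested. All 9 passed the filter on low values, but Ciita passed through its 3 day 1 libraries and 1 PBS library, so that it entered through the group where it was high, and RT1-DOa passed through 3 day 1 and 2 PBS libraries. Every one of the calls of RT1-Da, RT1-Db1, RT1-Ba, RT1-Bb, Cd74 and Ciita was kept under each of 18 alternative fits.

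At NM day 28 against PBS, 1 of the 9 genes was lower (RT1-DMa) and 0 were higher, where 3.98% of all genes tested were called lower and 3.07% higher (7.04% in either direction). A share of 1 in 9 is not set apart from that background. By limma, 2 of the 9 had an unadjusted p under 0.05, RT1-DMa and RT1-DOa. Here and for the lists below, the share of all genes under that unadjusted threshold was not computed. Such counts are therefore not set against a background. The median difference was -0.50 log2 units (-0.49 without RT1-DOa), against -0.04 for all genes. The 95% confidence intervals were wide for the genes that rose on day 1, from -0.68 to 0.63 for RT1-Da, -1.42 to 0.59 for RT1-Db1, -1.26 to 0.31 for RT1-Ba, -1.35 to 0.26 for RT1-Bb, -1.54 to 0.11 for RT1-DOb and -0.82 to 0.78 for Cd74. A difference of 1 log2 unit below PBS lies inside the interval of RT1-Db1, RT1-Ba, RT1-Bb and RT1-DOb. Ciita, at 0.179, 0.631 and 1.07 FPKM in PBS, lay too low there to fall that far on this scale.

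Between NM day 28 and NM day 1, 9 of 9 genes were lower, where 6.88% of all genes tested were called lower and 4.75% higher (11.6% in either direction). The day 28 libraries lay below the day 1 libraries in each of the 9, as in 15.7% of all genes. The differences on the log2(FPKM + 1) scale were -4.43 for RT1-Da, -4.52 for RT1-Db1, -4.87 for RT1-Ba, -2.92 for RT1-Bb, -2.69 for RT1-DOb and -4.07 for Cd74, beside those of Ciita and RT1-DMa given above. The median was -3.73 (-3.90 without RT1-DOa), against -0.00 for all genes. This comparison shares its day 1 libraries with the first, so the values for day 1 enter both.

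**Figure D4:**
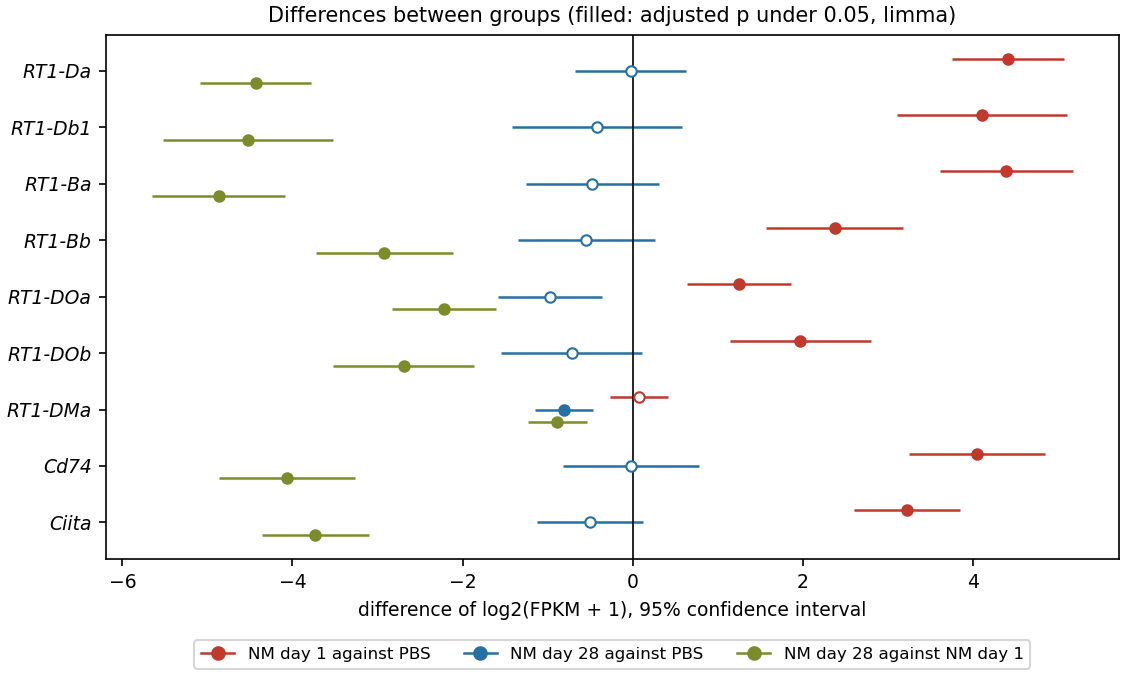
Differences between groups on the log2(FPKM + 1) scale for each of the 9 genes with 95% confidence intervals; filled points have an adjusted p under 0.05 by limma. For 8 genes the day 1 difference from PBS lies between 1.25 and 4.41 and for RT1-DMa at 0.07, while among the day 28 differences from PBS only that of RT1-DMa is filled.

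The day 28 rats differed among themselves. NM day 28 replicate 0 was the highest of its group in 6 of the 9 genes and replicate 1 the lowest in 7. The highest library was 3.02 times the lowest for RT1-Da, 6.12 for RT1-Db1, 4.84 for RT1-Ba, 4.46 for RT1-Bb and 3.396 for Cd74, against 1.09 for RT1-DMa. At day 1 the same ratio lay between 1.11 for RT1-Ba and 1.72 for Ciita, and in PBS between 1.18 for RT1-DMa and 5.98 for Ciita, with 2.24 for RT1-Db1 and 3.62 for RT1-DOa. Without NM day 28 replicate 1, the differences of day 28 from PBS turned from negative to positive for RT1-Da (0.31), RT1-Db1 (0.24), RT1-Ba (0.00247) and Cd74 (0.50), and none of them passed.

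The order of the genes by mean FPKM changed with the group. In PBS it was RT1-DMa, Cd74, RT1-Db1, RT1-Da, RT1-Ba, RT1-Bb, RT1-DOb, RT1-DOa and Ciita, in which RT1-Db1 overlapped with RT1-Da, RT1-Ba with RT1-Bb, RT1-DOb with RT1-DOa and RT1-DOa with Ciita. At day 1 Cd74 led at 919.5 ± 110 FPKM (SD, n = 3), followed by RT1-Db1, RT1-Da, RT1-DMa, RT1-Ba, RT1-Bb, Ciita, RT1-DOb and RT1-DOa. There RT1-Db1 overlapped with RT1-Da, RT1-DMa with RT1-Ba and Ciita with RT1-DOb. At day 28 RT1-DMa led again, and the genes from Cd74 down to RT1-Bb (Cd74, RT1-Db1, RT1-Da, RT1-Ba and RT1-Bb) overlapped each with the next.

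Across the 9 libraries, the correlation of each gene's log2(FPKM + 1) with the mean of the other 8 was 0.995 for RT1-Ba, 0.990 for RT1-Db1, 0.986 for Cd74, 0.982 for RT1-Da, 0.966 for Ciita, 0.962 for RT1-Bb, 0.951 for RT1-DOb, 0.905 for RT1-DOa and 0.628 for RT1-DMa. These values describe 9 libraries in 3 groups, which share the step at day 1. Of 7759 other genes with a group mean of at least 5 FPKM, the 8 most alike to the mean of the 9 were Cdh1 (Pearson r = 0.987), Rab30 (0.984), Il21r (0.984), Pole (0.982), Timeless (0.977), Adgrg5 (0.976), Ccl22 (0.973) and Zdhhc18 (0.972). Cdh1 encodes the adhesion protein E-cadherin, Il21r the receptor of interleukin 21, Ccl22 a chemokine that attracts T cells, and Pole a catalytic subunit of a DNA polymerase. Cdh1 was at 0.997, 1.59 and 0.906 FPKM in PBS, 6.66, 9.06 and 6.85 at day 1 and 0.993, 0.440 and 0.540 at day 28. Ccl22 was at 0.235, 1.52 and 0.852 FPKM in PBS, 38.8, 50.7 and 39.0 at day 1 and 1.51, 0.585 and 1.98 at day 28. These genes were picked for this likeness over the same libraries, so their course is part of the choice.

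Genes that supply the class II pathway with peptides or carry its molecules did not move as a group on day 1. Of 14 tested, 1 was higher and 1 lower, with a median difference of -0.14 log2 units against -0.04 for all genes. Ctsl, the protease cathepsin L, was at 14.1, 11.2 and 9.10 FPKM in PBS and at 41.3, 47.3 and 33.6 at day 1, with no overlap (1.75 ± 0.22 log2 units, adjusted p = 0.000367 by limma), and was lower again at day 28 than at day 1 (-1.42, adjusted p = 0.00170). Ap1m1, a subunit of a sorting adaptor, was lower on day 1 (-0.57, adjusted p = 0.0291), a call kept in 13 of 18 alternative fits. Ctss, cathepsin S, which trims the invariant chain, differed by -0.16 (adjusted p = 0.751), and Ifi30, a thiol reductase of the endosome, by 0.03 (adjusted p = 0.937). At day 28 against PBS, 1 of the 14 was lower, the tetraspanin Cd82 (-0.80, adjusted p = 0.0167), and 0 were higher.

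Among co-stimulators and molecules of the contact with T cells, 3 of 8 were higher on day 1 and 0 lower, with a median of 0.91 log2 units. Cd40, the receptor of the T cell's CD40 ligand, was at 1.15, 0.476 and 0.415 FPKM in PBS, at 9.47, 14.4 and 10.8 at day 1 and at 0.550, 1.14 and 0 at day 28. Its day 1 libraries stood above the other 6 (2.91 ± 0.32 log2 units from PBS, adjusted p = 0.000164 by limma; day 28 against day 1 -3.06, adjusted p = 0.000179). Cd80, a ligand of CD28, was higher on day 1 by 1.49 (adjusted p = 0.0232, kept in 13 of 18 alternative fits), and Pdcd1lg2, a ligand of PD-1, by 1.89 (adjusted p = 0.0303, kept in 8 of 16). At day 28 against PBS, 0 of the 8 were called by limma and 3 had an unadjusted p under 0.05. Against day 1, Lag3, a receptor that binds class II, was also lower (-1.05, adjusted p = 0.0381), which 5 of 17 alternative fits kept.

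Of 16 factors tested that act with or upstream of Ciita, 2 were higher and 1 lower on day 1, with a median of -0.11 log2 units. Irf4 was at 1.31, 0.965 and 0.875 FPKM in PBS and at 5.32, 7.25 and 4.46 at day 1 (1.69 ± 0.26, adjusted p = 0.00187 by limma). Irf8 was at 24.99, 20.3 and 23.0 FPKM in PBS and at 34.2, 56.8 and 39.7 at day 1 (0.88 ± 0.19, adjusted p = 0.0164). Both are interferon regulatory factors of immune cells, their groups did not overlap, and both were lower at day 28 than at day 1 (adjusted p = 0.0221 for Irf4 and 0.00491 for Irf8). Usf1, which binds an interferon-responsive promoter of Ciita in humans and mice, was lower on day 1 (-0.89, adjusted p = 0.0138) and at day 28 (-0.72, adjusted p = 0.0423). Spi1, the macrophage factor PU.1, was lower at day 28 than in PBS (-0.79, adjusted p = 0.0339). On day 1 Spi1 already lay below PBS without overlap, though short of the threshold (-0.65, adjusted p = 0.0570). Its day 28 level differed from day 1 by -0.14 (adjusted p = 0.705). The calls at day 28 were kept in 7 of 18 alternative fits for Usf1 and 10 of 18 for Spi1. Rfx5, the DNA-binding subunit of RFX, was at 7.95, 7.81 and 10.5 FPKM in PBS and at 9.34, 9.27 and 10.1 at day 1 (0.13, adjusted p = 0.751). Against day 1, the NF-Y subunit Nfyc was higher at day 28 (0.61, adjusted p = 0.0168) and the histone methyltransferase Ezh2 lower (-0.89, adjusted p = 0.0368, kept in 10 of 18 alternative fits).

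The gene of interferon gamma, Ifng, was listed at 0 in all 9 libraries, as was Ido1, one of its targets, and Nlrc5, the class I counterpart of Ciita, matched no row. Of 13 genes of the interferon gamma response tested, 2 were higher and 0 lower on day 1, with a median of 0.08 log2 units. Irf1, a transcription factor of this response, was at 25.5, 20.5 and 13.1 FPKM in PBS and at 27.8, 22.7 and 26.5 at day 1, which overlapped (0.41, adjusted p = 0.328 by limma). The genes that rose were Cxcl10, a chemokine induced by several interferons, at 0.763, 1.06 and 0.230 FPKM in PBS and 2.96, 9.18 and 8.46 at day 1 (2.14, adjusted p = 0.00943), and Socs3, an inhibitor of cytokine signalling (2.20, adjusted p = 0.00284). At day 28 Socs3 remained above PBS (1.54, adjusted p = 0.0234, kept in 13 of 18 alternative fits), and Cxcl10 and Socs1 were lower than at day 1 (-2.48 and -1.24, adjusted p = 0.00340 and 0.0277).

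Markers of other cells that may carry class II also moved on day 1, and their part in the values above was not tested. The summed FPKM of the 9 genes ran from 278 to 335 in PBS, from 1721 to 2169 at day 1 and from 147 to 272 at day 28. Monocyte and recruited macrophage markers summed to 147 to 174 FPKM in PBS, 282 to 344 at day 1 and 239 to 346 at day 28. Of 11 tested, 7 were higher than PBS on day 1 and 4 at day 28, and 3 were lower at day 28 than at day 1 (Ccr2, Plac8 and Vcan). Ccr2, the chemokine receptor of blood monocytes, was listed at 0 in the PBS libraries and was at 3.33, 6.60 and 9.25 FPKM at day 1 (adjusted p = 0.000342 by limma) and at 0, 0.638 and 0.590 at day 28. Ccr2 passed the filter on low values only through its day 1 libraries, the group where it was high. Plac8, which marks classical monocytes, was at 1.73, 3.29 and 1.57 FPKM in PBS, 42.1, 48.7 and 64.4 at day 1 and 0.515, 3.73 and 0 at day 28. Vcan, the matrix proteoglycan versican, had a mean of 2.12 FPKM in PBS, 13.3 at day 1 and 1.21 at day 28. In these 3 genes the day 1 libraries stood above the other 6. The integrin gene Itgam went from 1.05, 1.31 and 2.53 to 33.4, 31.9 and 18.1 FPKM at day 1 (3.45 log2 units, adjusted p = 2.30e-05) and was at 17.0, 11.9 and 20.9 at day 28, above PBS (adjusted p = 0.000401).

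Dendritic cell markers summed to 60.2 to 86.0 FPKM in PBS, 81.2 to 137 at day 1 and 33.0 to 55 at day 28, with 3 of 6 tested higher on day 1. Batf3, a factor of cross-presenting dendritic cells, made up most of the PBS sum, at 49.1, 45.8 and 66.2 FPKM in PBS and 17.1, 41.7 and 25.5 at day 1, which did not overlap (-0.98 log2 units, adjusted p = 0.0967 by limma). Clec10a, a lectin of dendritic cells and some macrophages, was at 1.40, 0.647 and 3.39 FPKM in PBS and at 30.2, 58.7 and 59.4 at day 1 (4.22 log2 units, adjusted p = 0.000173 by limma). Ccr7, the receptor with which dendritic cells reach lymph nodes, was at 0.117, 0.163 and 0.426 FPKM in PBS and at 14.6, 10.3 and 6.38 at day 1 (3.15 log2 units, adjusted p = 0.000231). The dendritic cell factor gene Zbtb46 reached 1.92, 4.05 and 2.44 FPKM at day 1 (adjusted p = 0.0407, kept in 9 of 17 alternative fits).

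B cell markers summed to 231 to 646 FPKM in PBS, 217 to 375 at day 1 and 98.6 to 250.2 at day 28, of which Fcrla alone made up 96.7 to 643. Pax5, which defines the lineage, was listed at 0 in the 6 NM libraries. Blk was the 1 of 3 tested that was higher on day 1 (1.19 log2 units, adjusted p = 0.0291 by limma, kept in 10 of 14 alternative fits), and 0 to 2 of the 3 were higher when each library was left out. Blk, too, passed the filter on low values only through its day 1 libraries, the group where it was high. T and natural killer cell markers summed to 27.0 to 37.8 FPKM in PBS. They summed to 104 to 111 at day 1 and 32.8 to 46.9 at day 28. Of 9 tested, 4 were higher on day 1 and 0 lower, Klrk1 the most (4.13 log2 units, adjusted p = 2.58e-05 by limma). The others were Cd2 (2.20, adjusted p = 0.00359), Il7r (1.51, adjusted p = 0.00446) and Cd8a (1.39, adjusted p = 0.0303, kept in 11 of 18 alternative fits). Cd3e, a defining gene of T cells, was at most 0.543 FPKM. Cd3g, another CD3 chain gene, had a mean of 0.924 FPKM in PBS and 4.16 at day 1, with overlap (adjusted p = 0.102).

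Alveolar type II cells, epithelial cells that make surfactant and can carry class II, had markers that summed to 187 to 272 FPKM in PBS, 866 to 2889 at day 1 and 235 to 307 at day 28. Napsa, a gene of this list, made up most of the PBS and day 28 sums. It was at 184, 154 and 128 FPKM in PBS and at 241, 168 and 239 at day 28. At day 1 it was at 108, 122 and 126.5 FPKM, below PBS without overlap (-0.37 log2 units, adjusted p = 0.236 by limma). Etv5 also lay below PBS on day 1 without overlap (-0.63, adjusted p = 0.0633). Of 8 tested, 5 were higher on day 1. The surfactant gene Sftpc was at 28.2, 79.1 and 30.9 FPKM in PBS and at 2231, 865 and 582 in day 1 replicates 0, 1 and 2 (4.63 log2 units, adjusted p = 5.80e-05 by limma), and Sftpd was listed at 0 in every library. At day 28 Sftpc was at 31.7, 27.4 and 26.3 FPKM. The markers of resident alveolar macrophages summed to 2462 to 4744 FPKM in PBS, 2277 to 2595 at day 1 and 2553 to 2861 at day 28. Of 9 tested, 1 was higher and 2 were lower than PBS on day 1. Car4 was higher (3.33 log2 units, adjusted p = 0.00105 by limma). Cidec (adjusted p = 0.00332) and Pparg (-0.57, adjusted p = 0.0315, kept in 10 of 18 alternative fits) were lower. At day 28, 1 was higher than PBS, again Car4 (2.46, adjusted p = 0.00953), and 2 were lower. These were Cidec (-1.46, adjusted p = 0.000425) and Mrc1 (-0.73, adjusted p = 0.0323, kept in 11 of 18).

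**Figure D5:**
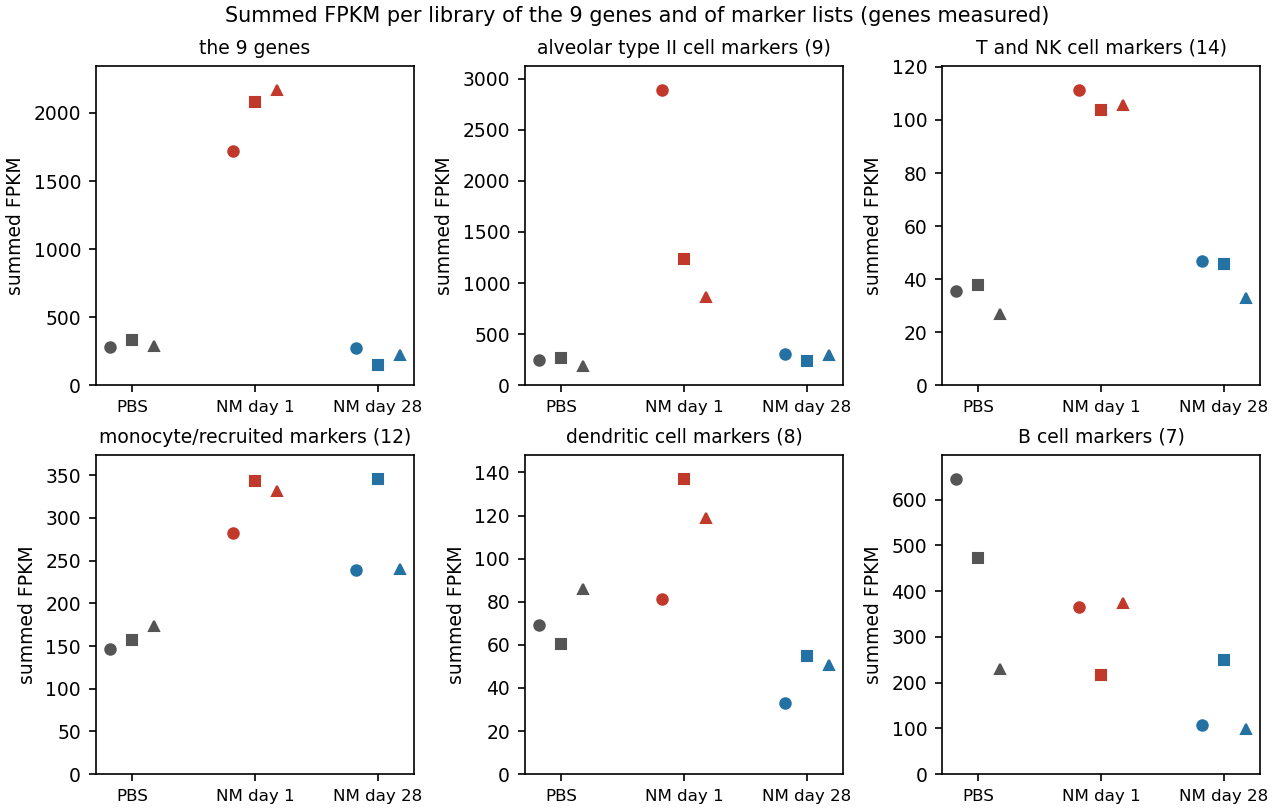
Summed FPKM per library (linear axes from 0) of the 9 genes and of marker lists of other cell types; circle, square and triangle are replicates 0, 1 and 2. The 9 genes sum to 1721 to 2169 FPKM at day 1 against 147 to 335 elsewhere, and the type II and T and natural killer lists are also highest at day 1, and the monocyte list is above PBS on both days, though its members Ccr2, Plac8 and Vcan were lower at day 28 than at day 1.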

How the data were processed

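Libraries of paired reads of 75 bases were made with a TruSeq RNA kit, per the labels' protocols. Per the submitters' processing notes, TopHat and Cuffdiff were run on the rat build rn4; their versions, the annotation and how multiply matched reads were handled are not given in the sources used here. In FPKM, as the authors deposited them, the files held 18197 RefSeq transcript rows in 9 libraries. Symbols from RefSeq (GRCr8) named 17189 of them (94.5%), and rows of one symbol were summed, giving 17109 genes; promoters and their coordinates are from the same assembly. The 9 genes had 11 rows. The 9885 genes with at least 1 FPKM in at least 3 libraries were fitted in R 4.3.3 with limma 3.58.1 (lmFit, eBayes with trend), on log2(FPKM + 1), with a mean per group and the spread shared over 9 libraries; called means a Benjamini-Hochberg adjusted p under 0.05. Adding 1 makes differences of low genes smaller than their FPKM ratio. Read counts were not used, so no counting interval is given. Ratios used exact permutation tests (Python 3.11.15, scipy 1.17.1).

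Members, lists, motifs and tests were chosen with earlier results of these data known. From each list, up to 6 called genes per comparison with the smallest p could be named, plus Rfx5, Nlrc5, B2m, Irf1, Ifng, RT1-DMb, Ctss and Ifi30 whatever their values, and the 8 genes most alike. A few genes under this rule are left out of the text. The fit was repeated with each library left out, on only the 6 libraries compared, with a replicate block, on transcript rows singly, after quantile normalisation or median-of-ratios scaling, with pseudocounts of 0.1 and 5, with 5 FPKM as the filter and without one.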

Additional observations from a re-analysis of the deposited data

Results flagged for a closer look

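Levels at day 28 and day 1 after NM differed in each of the 9 genes by a direct test (NM day 28 against NM day 1, limma with Benjamini-Hochberg adjustment over 9885 genes, 3 libraries per group). The adjusted p was 7.18e-06 for RT1-Da, 0.000156 for RT1-Db1, 1.10e-05 for RT1-Ba, 0.000652 for RT1-Bb, 0.000652 for RT1-DOa, 0.00118 for RT1-DOb, 0.00419 for RT1-DMa, 5.41e-05 for Cd74 and 1.61e-05 for Ciita. All were lower at day 28 in 3 of 3 libraries, and 11.6% of all genes tested were called in this comparison in either direction. One PBS group, labelled day 0, serves both days, so that time or age and the course after NM cannot be told apart here. For RT1-DMa the day 1 difference from PBS had not passed the threshold (0.07 log2 units, adjusted p = 0.819).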

How the results depend on the processing

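For the 9 genes, 458 of 481 recomputed differences kept their direction and their side of the threshold, 8 lost a call, 3 gained one and 12 changed sign. Of the 9, 7 to 8 were called higher at day 1 when each library was left out in turn, 9 to 9 lower between day 28 and day 1, and 0 to 2 lower at day 28 against PBS, where a pseudocount of 0.1 and no filter also gave 2. All sign changes were in differences that had not passed. For day 28 against PBS, RT1-Da gave 0.00256 with a pseudocount of 5, Cd74 gave 0.000808 after median-of-ratios scaling and 0.00861 after quantile normalisation, and leaving out each library gave -0.42 to 0.31 for RT1-Da, -0.36 to 0.50 for Cd74, -0.94 to 0.24 for RT1-Db1 and -0.95 to 0.00247 for RT1-Ba. For day 1 against PBS it gave -0.0367 to 0.20 for RT1-DMa, -0.12 to 0.10 for RT1-DMb, -0.12 to 0.21 for Ifi30, -0.39 to 0.0760 for Ctss and -0.44 to 0.0775 for B2m, and quantile normalisation gave 0.11 for Ctss and 0.0854 for B2m. Over all genes, a filter of 5 FPKM left 324 higher at day 1 and 408 lower between day 28 and day 1, with fewer genes tested, and the fit of only the 6 libraries compared left 230 lower at day 28 against PBS. Leaving out each library gave 181 to 658 higher and 55 to 721 lower at day 1, 154 to 368 and 120 to 426 at day 28, and 214 to 630 and 300 to 776 between them; 2 libraries then stood for a group, and the cause was not tested. Same-numbered libraries correlated from -0.10 to 0.20 in their deviations (3 of 9 pairs over 0.1), so the numbers were not taken as pairs; with the replicate block the 9 genes gave the same counts (8 higher, then 1 lower, then 9 lower) and all genes 481 higher and 347 lower at day 1, 278 and 348 at day 28, and 411 and 642 between them. The X box letters gave a pair in 3 of 8 promoters and the alternative form, chosen after the promoters had been seen, in 5 of 8. With a filter of 5 FPKM, RT1-DOa gave no value. Read counts were not used here, so how far depth limits the values of Ciita and the DO chains outside day 1 was not computed.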

Other observations

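Of 19 class I presentation genes tested, 0 were called at day 1 against PBS by limma (2 had an unadjusted p under 0.05), with a median difference of -0.08 log2 units. At day 28 against PBS 5 were lower and 0 higher, where 3.98% of all genes tested were lower (median -0.57, against -0.04 for all genes). They were the peptide transporter subunit Tap2 (-1.20, adjusted p = 0.0188), the class I chain RT1-CE10 (-0.99, adjusted p = 0.0330), the immunoproteasome subunit Psmb8 (-0.997, adjusted p = 0.0398), and the chaperones Pdia3 (-0.79, adjusted p = 0.0411) and Calr (-0.85, adjusted p = 0.0416). Tap2 was at 34.9, 31.8 and 26.6 FPKM in PBS and at 17.3, 8.20 and 14.97 at day 28, with no overlap. Psmb8 was at 209, 174 and 150.2 FPKM in PBS and at 97.4, 57.6 and 120.0 at day 28. Between 0 and 7 of the 19 were called lower at day 28 over the 18 alternative fits. Against day 1, 7 of the 19 and 6.88% of all genes tested were lower at day 28, among them Tap1 (-0.88, adjusted p = 0.00642), Pdia3 (-1.03, adjusted p = 0.00814) and the class I chains RT1-N3 (-0.86), RT1-A1 (-0.95) and RT1-A2 (-0.61). B2m, the light chain of class I, differed by -0.19 at day 1 (adjusted p = 0.695). Reads of near-identical class I loci may be shared.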
